A study of Gallus gallus with 9 samples.

Results

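Circulating non-red blood cells (nRBCs) of the chick embryo were set against red blood cells (RBCs) of the same age, embryonic day 6 (E6), on Affymetrix chicken arrays. The comparison rests on 2 nRBC arrays and 2 RBC arrays, 4 of the 9 samples of the study, taken by their sample labels. All groups are Gallus gallus embryos, for which the labels give no strain, genotype or treatment. Blood was drawn by capillary from the ventricles of the heart, and a density gradient divided it into a heavy fraction, the RBCs, and a light fraction, the nRBCs. Each array holds RNA of a separate pool of embryos, amplified in a 2-cycle labeling. The fractions were divided by density and not by a surface marker, so neither is a single cell type, and the sources do not state whether an nRBC array and an RBC array came from the same embryos. The remaining samples are 4 arrays of the same fractions at E4 and 1 array of heart, which is E6 by its label and E4 by the heading of the deposited table.

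Red cells of birds keep their nucleus, and the primitive red cells of the chick embryo circulate while they still make hemoglobin and divide. Among the remaining circulating cells are thrombocytes, the nucleated counterpart of mammalian platelets, which carry fibrinogen receptors and clotting factors, together with macrophages and blood progenitors. Because the blood came from the ventricles, cells shed by the heart (muscle, endothelium, valve and wall fibroblasts) could also enter a fraction.

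For each of 38439 probe sets the deposited table holds a signal (the brightness that the MAS5 software computes from the probes) and a detection status (Present, Marginal or Absent). After quantile normalization of all 8 blood arrays together, every level below is a log2 signal on a common scale. Present calls covered 34.0% and 36.0% of probe sets on nRBC replicates 1 and 2, against 26.2% and 22.4% on RBC replicates 1 and 2. The fractions did not overlap in this share, but the mean difference of 10.7 percentage points had p = 0.33 in a two-sided exact permutation test, the smallest that 2 against 2 arrays allow. Measures often read as RNA quality, higher where RNA is more degraded, differed within the nRBC pair. The ratio of 3' to 5' signal for GAPDH was 12.7 and 5.99 on nRBC replicates 1 and 2 and 9.51 and 10.9 on RBC replicates 1 and 2. For actin the ratio was 12.4 on nRBC replicate 1 and 3.79 to 5.72 on the other E6 arrays. For dap, a Bacillus labeling control that is not chick RNA, it was 33.3 and 13.8 on nRBC replicates 1 and 2. On RBC replicate 1 the dap ratio was 12.9, and dap was Absent on RBC replicate 2. Whether the ratios reflect degraded chick RNA or the labeling was not tested. Over the 7158 probe sets Present on all 4 arrays, the RBC pair correlated at 0.952 (Pearson, across probe sets, which are not independent), the nRBC pair at 0.878, and arrays of different fractions at 0.828 to 0.864. With 2 arrays a group, precision is low throughout.

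At the threshold used, many more probe sets were called higher in nRBCs than lower, most of them without a Present call in RBCs. At E6, 602 probe sets for 428 gene symbols (1.57% of all tested) were higher in nRBCs, whereas 42 (0.109%), with 28 symbols, were lower (limma, adjusted p under 0.05). With 1 probe set per symbol the shares were 2.41% higher and 0.0307% lower. At an unadjusted p under 0.05 the counts were 3305 and 2241. By lack of overlap alone the balance was the reverse, with 19.1% of probe sets above the RBC arrays and 26.2% below them. Of the 602, 529 were Present on no RBC array, 25 on 1 and 48 on both, while 480 were Present on both nRBC arrays, 54 on 1 and 68 on none. Of the 42 lower probe sets, 40 were Present on no E6 blood array and give no measured difference. These calls borrow the spread of the E4 arrays, since 2 arrays a group leave little of their own. With the 4 E6 arrays alone in the fit limma called 0 probe sets (3020 higher and 1776 lower at an unadjusted p under 0.05). Without nRBC replicate 1, nRBC replicate 2 or RBC replicate 2 it also called 0 (2736, 2910 and 2982 higher at an unadjusted p under 0.05), and without RBC replicate 1 it called 87 higher and 0 lower. In bulk RNA, fewer cells of a type and less RNA per cell cannot be told apart.

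**Figure D1:**
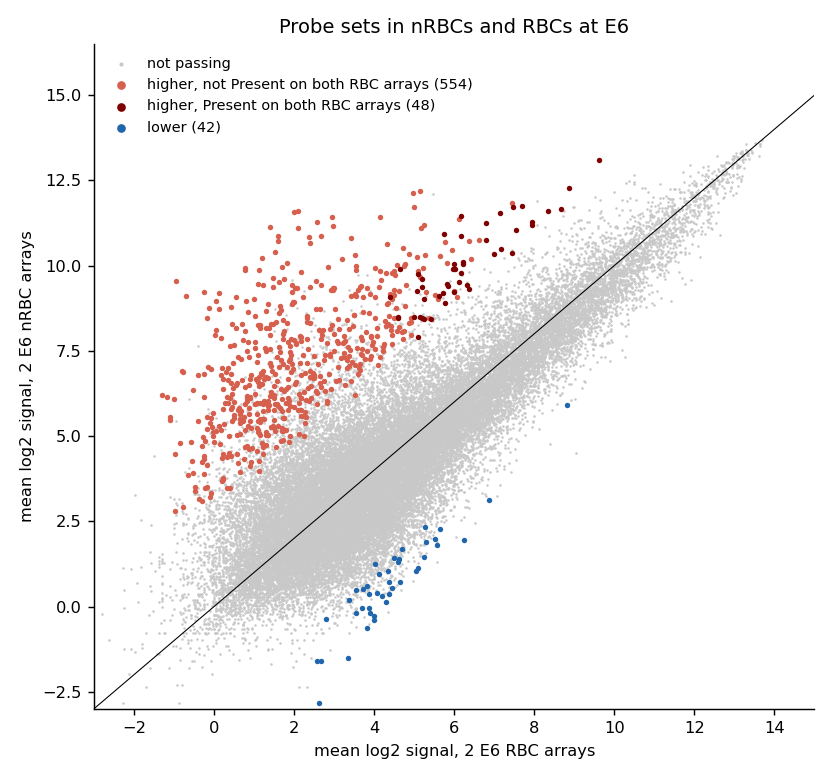
Each point is a probe set, with its mean log2 signal on the 2 E6 RBC arrays across and on the 2 E6 nRBC arrays upward, and the line marks equal levels. Most of the 602 higher probe sets (red) lie at RBC levels where no Present call was made, and 48 (dark red) were Present on both RBC arrays, while the 42 lower ones (blue) lie mostly at low levels in both fractions.

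The labels of the fractions were checked against markers of the cell types that blood from the ventricles could hold. All 7 red cell markers measured, among them 4 globins and the band 3 anion exchanger SLC4A1, were Present on both arrays of both fractions, and 0 of them passed the test. The nRBC fraction thus carried red cell transcripts too. SLC4A1 measured 13.02 and 11.23 in nRBCs against 12.63 and 12.90 in RBCs, and RHAG, a membrane protein of the Rh complex, 11.83 and 9.66 against 11.33 and 10.96, so nRBC replicate 2 was the lowest of the 4 arrays for both. Of 4 thrombocyte markers measured, 3 were Present on both nRBC arrays and 0 on an RBC array. All 5 fibroblast and all 3 cardiac markers measured were Present on both nRBC arrays (NPPA, a cardiac hormone, with levels that overlapped those of RBCs), against 3 of 4 for macrophages and 3 of 5 for endothelium. Of 5 lymphoid markers 0 were Present on both nRBC arrays, and RAG1, PAX5 and CD79B were Present on none of the 4 arrays.

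Thrombocyte genes stood among the brightest transcripts that separated the fractions. For a transcript without a Present call in RBCs, only a lower bound ("at least N-fold") is stated, computed against the faintest signal called Present on each RBC array, or against the measured signal if that was brighter. ATP2A3, the calcium pump SERCA3, measured 10.99 and 11.28 on nRBC replicates 1 and 2 and 1.36 and 1.43 on RBC replicates 1 and 2. The groups lay far apart, with both RBC arrays below detection, and the difference was at least 342-fold (log2 difference 9.74, SE 0.57, adjusted p = 0.00897 from limma). ITGB3, which encodes the CD61 chain of the receptor for fibrinogen, measured 12.36 and 12.02 in nRBCs and 5.60 and 4.69 in RBCs, at least 132-fold higher (adjusted p = 0.00897). RGS18, a regulator of G-protein signaling of mammalian platelets, measured 11.85 and 11.36 against 3.83 and 0.37. RGS18 was at least 367-fold higher (adjusted p = 0.0153). Its RBC signals, both Absent, lay farther apart than its nRBC signals, and the cause of that gap was not tested. MYLK, the myosin light chain kinase, measured 10.84 and 9.96 in nRBCs (at least 206-fold over RBCs, adjusted p = 0.0213) and was as bright on the heart array, at 10.83. CD36, a scavenger receptor, exceeded RBCs at least 42.5-fold (adjusted p = 0.0359). In all, 8 of 23 thrombocyte genes measured were higher and 0 lower, with a median log2 difference of 1.50 over the list, beside 2.41% and -0.12 over all 13009 symbols. GP9, a chain of the von Willebrand receptor, was Present on both nRBC arrays (8.02 and 8.27) and on no RBC array (4.97 and 5.03) but did not pass (adjusted p = 0.334). TUBB1, the beta tubulin of platelets and of avian red cells, measured 12.57 and 11.40 in nRBCs and 12.83 and 12.62 in RBCs (adjusted p = 0.608).

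Of 23 genes of clotting measured, 4 were higher and 0 lower (2.41% of all symbols were higher). F13A1, the transglutaminase subunit that cross-links fibrin, measured 12.45 and 10.11 in nRBCs against 1.98 and 3.18 in RBCs. Both nRBC arrays were well above the RBC arrays, but replicate 1 exceeded replicate 2 by 2.34 on the log2 scale (at least 284-fold, adjusted p = 0.0179). F10, factor X, ran the other way between replicates, with 9.56 and 10.63 against 1.36 and 2.26 (at least 166-fold, adjusted p = 0.00897). TFPI, the inhibitor of the tissue factor pathway, was higher by the probe set of the largest difference, with 9.84 and 8.36 against 0.07 and -1.45 (at least 83.6-fold). A further TFPI probe set gave at least 41.8-fold (adjusted p = 0.00986). SERPINB2, an inhibitor of plasminogen activators, measured 9.91 and 8.55 in nRBCs and -0.39 and -0.13 in RBCs, at least 91.2-fold higher (adjusted p = 0.0226), and 0.08 on the heart array. The annexin ANXA5 was at least 11.6-fold higher (adjusted p = 0.0475).

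**Figure D2:**
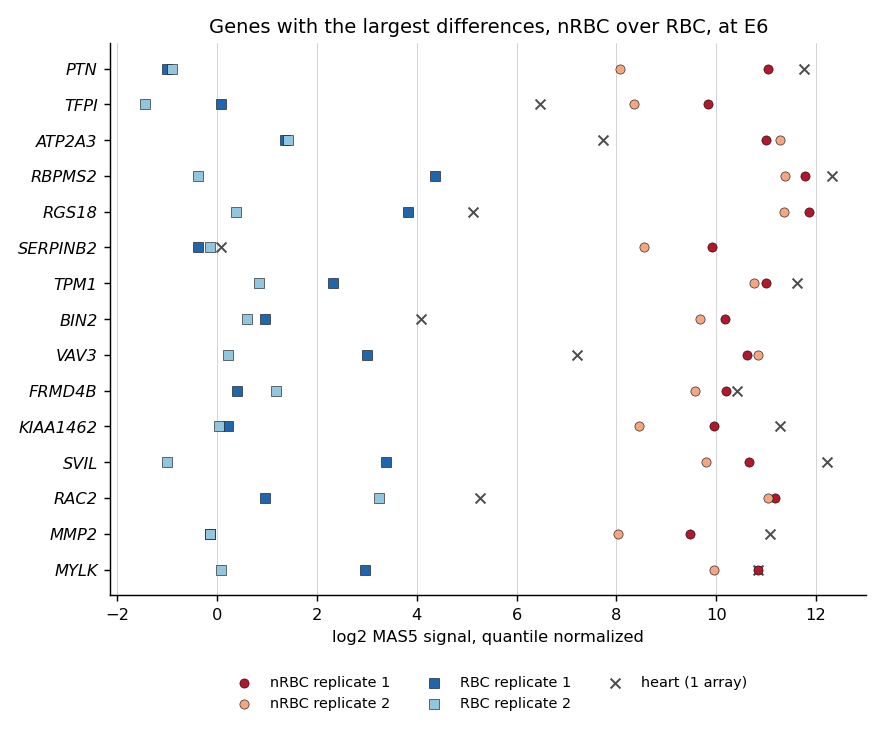
Log2 signals (across) of the 15 genes with the largest log2 differences at E6, one row a gene, in an order that rests partly on RBC signals below detection, with circles for nRBC replicates 1 and 2, squares for RBC replicates 1 and 2 and a cross for the 1 heart array. Genes were taken only if Present on both nRBC arrays and without overlap of the fractions. All nRBC points lie above 8 and all RBC points below 5, and the heart lies above both nRBC arrays for PTN, RBPMS2, TPM1, FRMD4B, KIAA1462, SVIL and MMP2.

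Among the genes of immune receptor signaling were some of the brightest nRBC transcripts without a Present call in RBCs. RAC2, a small GTPase of hematopoietic cells, measured 11.17 and 11.03 in nRBCs against 0.95 and 3.25 in RBCs (at least 244-fold, adjusted p = 0.00897). PLCG2, a phospholipase that acts downstream of immune receptors, measured 10.80 and 10.88 against 1.53 and 3.20 (at least 207-fold, adjusted p = 0.0171). VAV3, a guanine nucleotide exchange factor, was at least 290-fold higher by its brightest probe set (adjusted p = 0.0167). For RAC2, PLCG2 and VAV3 the nRBC replicates differed by less than 0.5 on the log2 scale and did not overlap the RBC arrays. The kinase SYK (8.61 and 9.01 against 0.71 and 2.59) exceeded RBCs at least 62.8-fold (adjusted p = 0.0288), and the Src family kinase FYN (10.80 and 9.26 against 4.41 and 4.75) at least 43.7-fold (adjusted p = 0.0171). The adaptor LCP2 and the phosphatase PTPN6 were at least 29.9-fold and 28.8-fold higher, both with an adjusted p of 0.00897. Of 35 genes of immune receptor signaling measured, 11 were higher and 0 lower, beside 2.41% of all symbols higher. The median log2 difference of the list was 1.56. In 9 of the 35 the nRBC replicates lay over 1 log2 unit apart (4 toward replicate 1, 5 toward replicate 2). Over all 13009 symbols, 2238 lay over 1 apart toward replicate 1 and 2265 toward replicate 2. BTK, a kinase of B cells and myeloid cells, was Present on all 4 arrays (11.42 and 10.89 against 9.58 and 9.61) and did not pass (adjusted p = 0.256). BIN2, a membrane-bending protein of leukocytes, measured 10.18 and 9.67 in nRBCs and 0.95 and 0.60 in RBCs (at least 148-fold, adjusted p = 0.00897).

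Genes of the actin cytoskeleton and of adhesion formed the list with the highest median, 2.11 on the log2 scale. Of its 40 members measured 13 were higher and 0 lower, beside 2.41% of all symbols higher. Of the 40, 33 lay without overlap above the RBC arrays (22.8% of all symbols did). GSN, the actin-severing protein gelsolin, measured 10.60 and 10.65 in nRBCs against 4.09 and 4.53 in RBCs (at least 79.4-fold, adjusted p = 0.00897). TPM1, a tropomyosin, measured 11.00 and 10.76 against 2.33 and 0.84 (at least 287-fold, adjusted p = 0.0321). PDLIM1, a LIM protein of actin fibers, measured 12.05 and 10.80 against 2.86 and 5.43 (at least 144-fold, adjusted p = 0.0223). Supervillin, SVIL, a membrane-bound actin regulator, was at least 164-fold higher (10.66 and 9.80 against 3.39 and -1.01, adjusted p = 0.0272). MYH9, the heavy chain of nonmuscle myosin, was Present on both nRBC arrays only (9.00 and 7.25 against 4.49 and 4.32), with an adjusted p of 0.0703.

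Among the integrins, the adhesion receptors that link these filaments to matrix, 4 of 15 chains measured were higher, ITGB3 among them. Over all symbols 2.41% were higher. ITGA6, a laminin receptor chain, measured 9.19 and 9.00 in nRBCs against 3.88 and 3.23 in RBCs (at least 46.6-fold, adjusted p = 0.0151). ITGAV, the partner of ITGB3 in the vitronectin receptor, measured 7.60 and 7.39 against 1.77 and -0.10 (at least 27.4-fold, adjusted p = 0.0156). The chain ITGB2 passed (adjusted p = 0.0186) with levels of 7.29 and 6.35 against 1.46 and 1.59, but it was Present on none of the 4 arrays, so no fold is given. ITGA2, a collagen receptor chain, measured 8.96 and 8.50 against -0.66 and 3.71 and did not pass (adjusted p = 0.061). ITGB1 was Present on all 4 arrays (11.54 and 11.34 against 9.18 and 8.24, adjusted p = 0.061).

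Of 24 genes of stem and progenitor cells measured, 5 were higher and 0 lower (2.41% of all symbols were higher). HHEX, the homeobox factor HEX of early blood and endothelium, measured 10.86 and 11.02 in nRBCs and 5.38 and 6.12 in RBCs. It was Present on all 4 arrays, so its difference of 36.4-fold (log2 difference 5.19, SE 0.50, adjusted p = 0.0133) is measured on both sides. PTPRC, which encodes the leukocyte phosphatase CD45, measured 9.67 and 9.98 against 1.61 and 2.72 (at least 121-fold, adjusted p = 0.0153). FLI1, an ETS factor of megakaryocytes and endothelium, measured 10.36 and 9.76 against 5.16 and 4.36 (at least 39.4-fold, adjusted p = 0.0148). CBFB, the partner of the RUNX factors, exceeded RBCs at least 21.8-fold (adjusted p = 0.0171), and KLF2, Present on nRBC replicate 1 only, at least 13.6-fold (adjusted p = 0.0223). KIT, the receptor for stem cell factor, divided the nRBC replicates, with 6.19 on replicate 1 and 10.34 on replicate 2. It was Present on both and on no RBC array (1.53 and 4.86), and did not pass (at least 19.5-fold, adjusted p = 0.206). RUNX1 was Present on nRBC replicate 1 only (5.19 and 4.04 against 3.45 and 2.13, adjusted p = 0.311), and TAL1, a factor of red cells and progenitors, was Present on all 4 (8.49 and 8.14 against 9.43 and 10.03, adjusted p = 0.364).

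Innate immune genes also separated the fractions. CD200R1A, an inhibitory receptor of myeloid cells, measured 11.75 and 11.08 in nRBCs against 3.03 and 2.87 in RBCs (at least 346-fold, adjusted p = 0.0153). LY96 (MD2), the partner of the endotoxin receptor, measured 7.63 and 7.53 against 1.84 and 0.21 (at least 29.2-fold, adjusted p = 0.0148), and LY86 (MD1) exceeded RBCs at least 11.5-fold (adjusted p = 0.0263). The lysozyme LYG2 was at least 37.1-fold higher (adjusted p = 0.0215). Of 35 macrophage and myeloid genes measured 5 were higher, the last being ITGB2, beside 2.41% of all symbols. Among probe sets Present on at least 2 of the 4 arrays, 10 of the 20 list members tested were higher. Of all 12655 probe sets in that test 1283 were higher. A gene Present on the 2 nRBC arrays alone enters that test, so the filter partly sets these counts. With all probe sets tested, markers of macrophages proper did not pass. CSF1R, the receptor that macrophages need for growth, measured 9.66 and 7.56 against 4.71 and 5.21 (adjusted p = 0.0857), and C1QB, a complement chain, 9.37 and 6.45 against 3.96 and 1.74 (adjusted p = 0.0934). For both, replicate 1 was the higher nRBC array by over 2 on the log2 scale.

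Of 17 defense peptides and proteases measured, 3 were higher, beside 2.41% of all symbols. The beta-defensin AvBD1 measured 7.91 on both nRBC arrays and 1.98 and 2.37 on the RBC arrays (at least 36.3-fold, adjusted p = 0.0134). AvBD7, of the same family, measured 9.08 and 9.39 against 5.54 and 5.04 (at least 15.4-fold, adjusted p = 0.0271). LECT2, a chemotactic protein, was Present on RBC replicate 2 as well, with 9.06 and 9.49 against 4.57 and 4.44 (adjusted p = 0.0186). All 3 lay far above the heart array, at 2.54 for AvBD1, 4.97 for AvBD7 and 5.03 for LECT2. Among 47 chemokines, cytokines and their receptors, 5 were higher, with IL1RAP, the co-receptor for interleukin 1, at 8.27 and 8.02 against 3.32 and 3.43 (at least 27.3-fold, adjusted p = 0.0215). The only lymphoid gene to pass of 25 measured (4%, near the 2.41% of all symbols) was IL2RG, the common cytokine receptor chain. It measured 6.44 and 6.55 against 3.45 and 3.09 (adjusted p = 0.0474) and was Present on none of the 4 arrays.

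Some genes of heart wall cells were higher in nRBCs as well, most of them brighter on replicate 1. Of 35 cardiac muscle genes measured, 5 were higher, beside 2.41% of all symbols. TNNC1, cardiac troponin C, measured 10.65 and 9.12 in nRBCs, 0.71 and 1.52 in RBCs and 13.18 on the heart array (at least 143-fold over RBCs, adjusted p = 0.00897). TNNT2, cardiac troponin T, measured 10.13 and 8.01 against 3.61 and 3.83, and 13.50 in the heart (at least 40.7-fold, adjusted p = 0.0265). Replicate 1 was the higher nRBC array for both, and the heart lay above both nRBC arrays. MYBPC3, the cardiac myosin-binding protein, and ACTC1, cardiac actin, were at least 99.4-fold and 48.8-fold higher. MYL3, a myosin light chain, was Present on nRBC replicate 1 only (7.55 and 5.22 against 0.21 on both RBC arrays, adjusted p = 0.0355).

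Of 31 fibroblast and matrix genes 9 were higher, beside 2.41% of all symbols. DCN, the matrix proteoglycan decorin, measured 10.27 and 7.31 in nRBCs and 0.83 and 0.03 in RBCs (at least 67.5-fold, adjusted p = 0.0294), and 11.53 in the heart. COL1A2, a chain of type I collagen, was nearer between replicates, with 8.66 and 8.21 against 3.63 and 2.55 (at least 40.7-fold, adjusted p = 0.0153). POSTN (periostin) and COL3A1 were each Present on both nRBC arrays and on RBC replicate 2. POSTN measured 11.21 and 9.44 against 3.72 and 3.33 (adjusted p = 0.0309). COL3A1 measured 10.71 and 9.00 against 3.39 and 5.60 (adjusted p = 0.0457). Of 24 endothelial genes 2 were higher, beside 2.41% of all symbols: CDH5, the cadherin of endothelial junctions (8.85 and 7.09 against 1.27 and 1.52, at least 38.2-fold, adjusted p = 0.0156), and TEK, the angiopoietin receptor (5.65 and 6.31 against 2.93 and 2.72, at least 8.43-fold, adjusted p = 0.0475).

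The nRBC replicates can be read against each other by these lists. The median of replicate 1 minus replicate 2 was 1.43 on the log2 scale over the cardiac list and 1.31 over the fibroblast list, against 0.01 over all symbols. Other lists leaned to replicate 1 by less, with 0.7 for red cell membrane, 0.64 for autophagy and 0.53 for lymphoid genes. The cell cycle list (-1.36) and the ubiquitin list (-0.31) leaned to replicate 2. The summed level of the cardiac list was 13.19 and 11.61 on nRBC replicates 1 and 2, 9.60 and 9.55 on the RBC arrays and 16.58 in the heart. That of the fibroblast list was 13.53 and 12.12, 9.65 and 9.89, and 15.14. Thus replicate 1 lay nearer the heart on both lists, and replicate 2 still lay above both RBC arrays. Set against the RBC mean one at a time, the median cardiac difference was 2.46 on replicate 1 and 0.91 on replicate 2, while for the thrombocyte list it was 1.59 and 1.41 and for immune receptor signaling 1.55 and 1.36. The high GAPDH and actin ratios of replicate 1 go with these gaps, and their part in them was not tested.

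**Figure D3:**
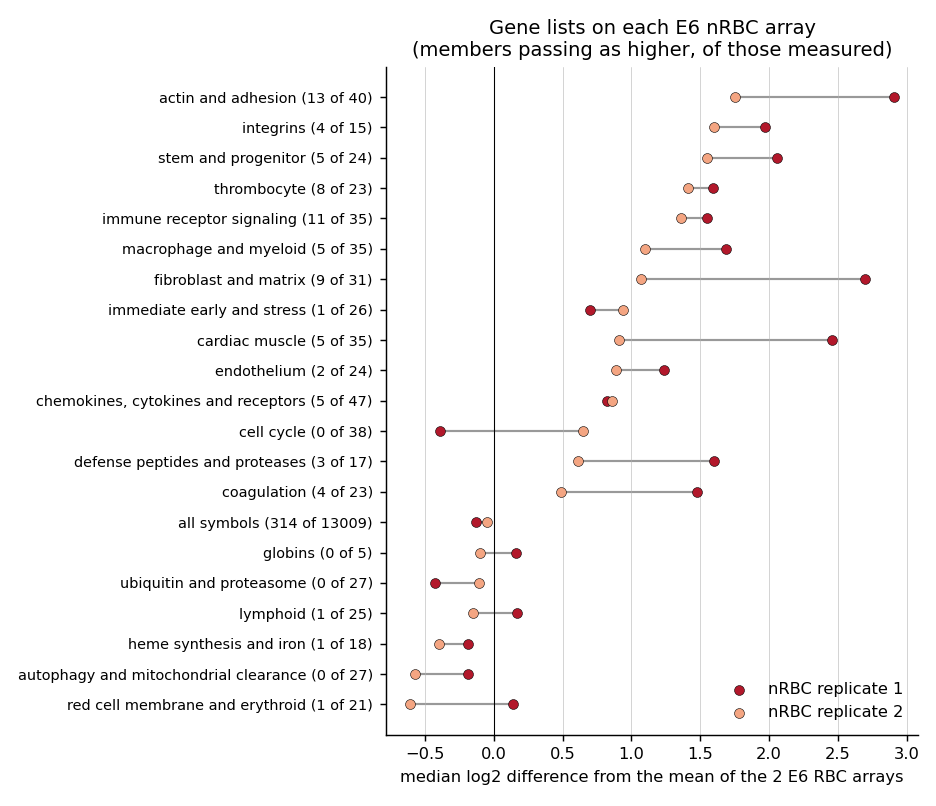
For each gene list, the median log2 difference (across) of nRBC replicate 1 (dark red) and of nRBC replicate 2 (light) from the mean of the 2 E6 RBC arrays, with the number of members passing as higher, of those measured, in brackets. The medians lie close for the thrombocyte, integrin and immune receptor lists and apart for the fibroblast, cardiac, actin, coagulation, defense, cell cycle and red cell membrane lists. The distance between medians is not the median gap of replicates within genes. That gap was -0.01 for the defense list and 0.33 for both the coagulation and the integrin list.

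Among the called genes the nRBC replicates differed mostly toward replicate 1. Of the 602 higher probe sets, replicate 1 was above replicate 2 in 452 (75.1%). Over all 13009 symbols it was above in 6529. The replicates differed by over 1 on the log2 scale in 183 of the 602 (30.4%). Gaps of that size were also common over all 13009 symbols, with 2238 toward replicate 1 and 2265 toward replicate 2. The median of replicate 1 minus replicate 2 was 0.51 over the 602, beside 0.02 over all probe sets Present on both nRBC arrays. On the heart array 365 of the 602 (60.6%) were above their nRBC mean, and 136 (22.6%) were more than 1 log2 unit below it. Among the 480 Present on both nRBC arrays, the median gap was 0.81 for the 281 that were above the nRBC mean in the heart and 0.36 for the 199 that were not. Among called probe sets with 1 gene symbol, the widest gaps toward replicate 1 were those of PTN, a heparin-binding growth factor (11.03 and 8.06 against -1.01 and -0.91 in RBCs), DCN, ABLIM1, an actin-binding LIM protein (10.50 and 7.82), LHFPL1, EDNRA, an endothelin receptor, and TENM4. The gaps toward replicate 2 were smaller, led by SLC31A1, a copper transporter (4.90 and 6.61), GLIPR1L and a dim TPM1 probe set (6.05 and 7.51).

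Cell cycle genes divided the nRBC replicates the other way. Of 38 measured, 0 passed in either direction by limma, beside 2.41% of all symbols higher and 0.0307% lower. Of the 33 Present on at least 2 of the 4 arrays, 0 passed as well. Of all 12655 probe sets in that test 1283 were higher and 130 lower. Yet replicate 1 was the lowest of the 4 E6 arrays for 20 of the 38 (52.6%, against 28.9% of all symbols), and replicate 2 was the highest for 26 (68.4%, against 23.3%). PCNA, the sliding clamp of DNA replication, measured 9.32 and 11.45 in nRBCs and 10.73 and 9.98 in RBCs. MCM2, a subunit of the replicative helicase, measured 9.00 and 11.12 against 8.80 and 9.30, and RRM1, a subunit of ribonucleotide reductase, 6.84 and 9.54 against 8.72 and 8.14. In each case the RBC arrays lay between the nRBC arrays or near the lower one, and the groups overlapped. A mean over the nRBC replicates therefore hides a spread of 1.36 on the log2 scale (median over the list) between them. The inhibitor CDKN1A measured 8.85 and 7.03 in nRBCs against 9.45 and 9.63 in RBCs (adjusted p = 0.347) and CDKN1B 10.89 and 9.71 against 11.40 and 11.63 (adjusted p = 0.394).

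Differences can be measured on both sides only where RBCs also had Present calls. The 48 higher probe sets Present on both RBC arrays were Present on all 4, and their differences ran from 7.02-fold to 38.8-fold. On the heart array 21 of the 48 were above their nRBC mean. CKB, the brain form of creatine kinase, measured 11.66 and 11.24 in nRBCs against 6.13 and 6.21 in RBCs (38.8-fold, adjusted p = 0.0134). TESC, a calcium-binding protein, measured 10.49 and 9.29 against 4.03 and 5.28 (37.7-fold, adjusted p = 0.0271). PGRMC1, a heme-binding membrane protein, measured 11.46 and 11.64 against 7.05 and 7.22 (21.4-fold, adjusted p = 0.0153). The fractions did not overlap for any of these 3. In the heart CKB measured 12.59, TESC 8.58 and PGRMC1 11.12.

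Several of these genes act at the cell cortex and in adhesion. FERMT2 (kindlin 2), an activator of integrins, was nearly equal between replicates, with 9.27 and 9.26 against 5.06 and 5.10 (18.2-fold, adjusted p = 0.0188). TPM2 was 16.4-fold higher (12.02 and 11.46 against 7.77 and 7.63, adjusted p = 0.0215), LIMS1 (PINCH1) 15.3-fold by the probe set of the larger difference, and MSN (moesin), which ties actin to the membrane, 12.2-fold. VCL (vinculin), ACTN1 (alpha actinin) and ACTB (cytoplasmic actin) were 10.2-fold, 10.7-fold and 11.2-fold higher, while 3 dimmer ACTB probe sets did not pass, 1 of which lay the other way without overlap (7.67 and 7.61 in nRBCs against 8.50 and 9.61 in RBCs). SPTBN1, the beta spectrin of nonerythroid cells, was 25.3-fold higher (10.80 and 8.70 against 5.55 and 4.63, adjusted p = 0.0482). It was the only one of 21 genes of the red cell membrane list to pass (4.76%, beside 2.41% of all symbols). TNFAIP8, a regulator of cell death, was 15.2-fold higher (10.01 and 9.79 against 6.04 and 5.91, adjusted p = 0.0223), and MYD88, the adaptor of Toll-like receptors, 8.70-fold (adjusted p = 0.0443). GAPDH itself, the glycolytic enzyme used for the RNA quality ratio, was 9.49-fold higher by 1 probe set (10.93 and 11.44 against 7.97 and 7.91, adjusted p = 0.0321), and another did not pass (adjusted p = 0.0524).

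On the RBC side, measured genes fell short of the threshold when all 38439 probe sets were tested. The 1 lower probe set that was Present on both RBC arrays has no gene symbol here (6.30 and 5.54 in nRBCs against 8.76 and 8.89 in RBCs, 7.49-fold, adjusted p = 0.0480). TMEM215, a membrane protein, measured 6.39 and 5.76 in nRBCs and 8.87 and 9.18 in RBCs, a log2 difference of -2.95 (SE 0.55, adjusted p = 0.0544). BLVRA, biliverdin reductase, which acts on a breakdown product of heme, measured 6.32 and 6.85 against 9.19 and 9.33 (log2 difference -2.67, adjusted p = 0.0805). A brighter BLVRA probe set measured 9.41 and 8.50 against 10.62 and 10.71 (log2 difference -1.71, adjusted p = 0.272). EPB42, protein 4.2 of the red cell membrane, measured 7.90 and 7.99 against 10.39 and 10.21 (adjusted p = 0.115), and its brighter probe set 12.39 and 11.64 against 12.98 and 12.48 (adjusted p = 0.605). TMEM215 and the dimmer probe sets of BLVRA and EPB42 were Present on all 4 arrays. They were chosen among probe sets without overlap of the fractions, so their lack of overlap was set by that choice. Among all probe sets 26.2% lay without overlap below the RBC arrays and 19.1% above them.

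When the test was limited to the 12655 probe sets with Present calls on 2 or more of the 4 arrays, 1283 were higher and 130 lower, and 118 of the 130 were Present on both RBC arrays. Of the 130, 110 were Present on both nRBC arrays. A probe set Present on the 2 RBC arrays alone also enters that test, so the filter partly sets these counts. In that test TMEM215 (adjusted p = 0.00552) and the dimmer probe sets of BLVRA (adjusted p = 0.0101) and EPB42 (adjusted p = 0.0170) passed by limma. The brighter probe sets of BLVRA and EPB42 did not. Also passing as lower were NR0B1, an orphan nuclear receptor (5.86 and 5.69 against 7.75 and 8.47), FN3K, a kinase that removes sugars from glycated proteins (7.87 and 7.50 against 9.87 and 9.53), and GABARAPL2, an autophagosome protein (7.55 and 7.93 against 10.20 and 9.55). NFKBIZ, an inhibitor of NF-kappa-B (7.93 and 7.61 against 9.89 and 9.99), and AP2M1, a clathrin adaptor subunit (6.16 and 7.06 against 8.69 and 8.84), also passed there. Their median difference, over the 118, was -1.77 on the log2 scale. At E4 the difference was below 0 for 129 of the 130.

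**Figure D4:**
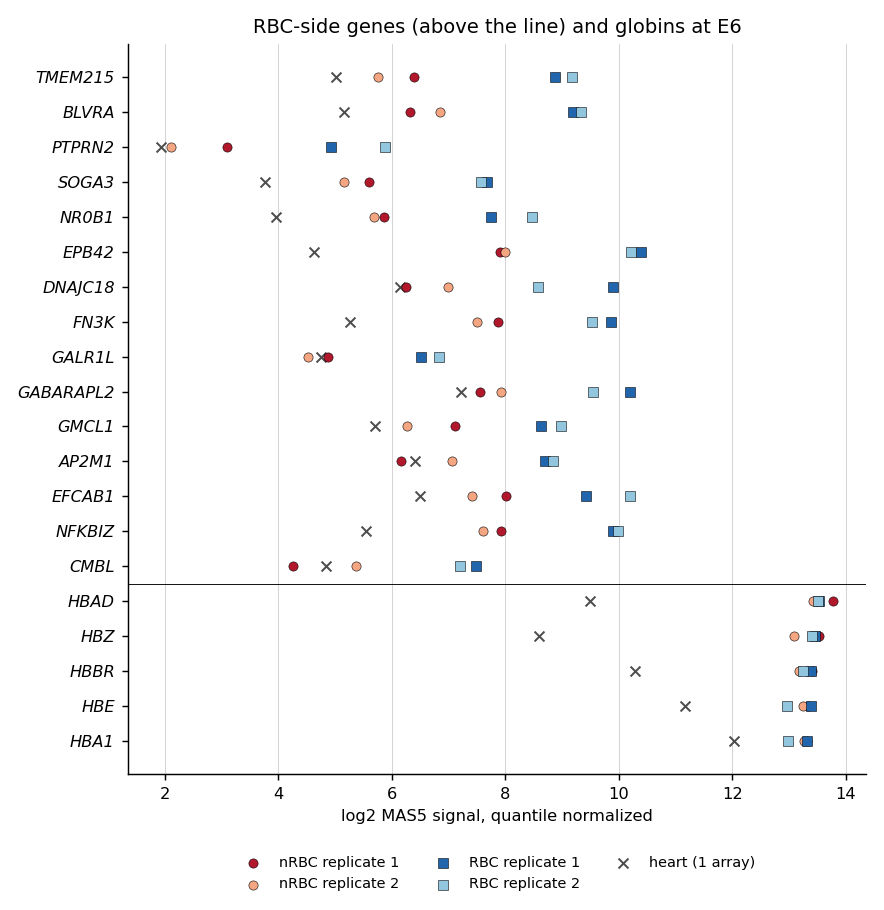
Log2 signals (across) of the 15 genes on the RBC side with the lowest p among those Present on both RBC arrays, none passing with all probe sets tested, and, under the horizontal line, of the 5 globins, with symbols as for the plot of the higher genes. The 15 genes were chosen among those without overlap, so their RBC squares lie to the right of both nRBC circles by that choice. The globins lie together between 12.97 and 13.77 on all 4 arrays.

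No difference in globins was detected on this scale, which leaves little room for one. The brightest probe set of each array lies at 13.77, and only 15 to 60 of 38439 probe sets an array were as bright as its dimmest globin. Whether these signals were saturated was not tested. HBAD, an adult alpha-type chain also made by primitive red cells, measured 13.77 and 13.42 in nRBCs and 13.53 and 13.50 in RBCs (log2 difference 0.08, adjusted p = 0.953). HBZ, an embryonic alpha-type chain, measured 13.53 and 13.08 against 13.46 and 13.41 (adjusted p = 0.926). HBE, an embryonic beta-type chain, measured 13.34 and 13.25 against 13.39 and 12.97 (adjusted p = 0.937). For all 5 globins measured, HBA1 and HBBR included, the fractions overlapped, and the sign of every globin's difference turned in at least 1 alternative scaling, covariate or leave-one-out fit. With an SE of 0.47 on the log2 scale for HBAD, these tests do not show that the levels were equal.

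Genes of heme and iron leaned to the RBC side by count only, and 0 passed as lower. Of 18 measured, 1 was higher (5.56%, beside 2.41% of all symbols). Without overlap, 10 lay below the RBC arrays and 3 above them (26.6% and 22.8% of all symbols did). The median log2 difference of the list was -0.28, beside -0.12 over all symbols. The higher gene was HMOX1, the heme oxygenase that macrophages use to break down heme (7.88 and 6.65 against 2.43 and 1.39, at least 23.4-fold, adjusted p = 0.0192). ACO1 also lay without overlap above the RBC arrays but did not pass (log2 difference 2.82, adjusted p = 0.0972). On the RBC side the differences named here were smaller in size, with -1.88 for SLC25A38. The mitochondrial glycine carrier SLC25A38 measured 10.25 on both nRBC arrays against 12.48 and 11.78 (adjusted p = 0.254), UROD, a decarboxylase of the pathway, 11.29 and 11.39 against 12.31 and 12.33 (adjusted p = 0.412), and FECH, which inserts the iron, 9.69 and 10.31 against 11.49 and 11.03 (adjusted p = 0.371). TFRC, the transferrin receptor, was level, with 12.96 and 12.55 against 12.78 on both RBC arrays. Of 27 autophagy genes and 27 genes of ubiquitin and the proteasome, 0 passed in either direction, beside 2.41% of all symbols higher and 0.0307% lower. In each list 9 lay without overlap below the RBC arrays (26.6% of all symbols did). RNF10, a ubiquitin ligase (6.13 and 5.66 against 7.70 and 7.67), and GABARAPL2 led those lists. Among probe sets Present on at least 2 of the 4 arrays, 1 of 24 autophagy and 1 of 25 ubiquitin members passed as lower. Of all 12655 probe sets in that test 130 did.

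The same comparison at E4, on arrays of other pools, gave 545 probe sets higher (1.42%) and 36 lower (0.0937%) by limma. Of the probe sets higher at E6, 332 were also higher at E4, which is 55.1% of those at E6 and 60.9% of those at E4. The calls at E4 and E6 are not independent, since both come from the same normalization and fit, with a shared spread for each probe set. The E4 difference was above 0 for 588 of the 602. The difference between the stages itself, tested over all probe sets, passed for 0 (1055 larger and 981 smaller at E6 at an unadjusted p under 0.05, lowest adjusted p = 0.409). Over the 15300 probe sets Present on at least 2 of the 8 blood arrays, the differences at the stages correlated at 0.815 (Pearson, across probe sets).

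Within that range a few genes are given by their levels, since RBC signals below detection set the size of their differences. TEK measured 5.65 and 6.31 in nRBCs at E6 and 6.69 and 7.30 at E4, and was Absent on all 4 RBC arrays (adjusted p of the difference between stages = 0.787 by limma). TNNC1 measured 10.65 and 9.12 at E6 and 8.56 and 8.78 at E4, also Absent on all 4 RBC arrays (adjusted p = 0.842). TNNT2 measured 10.13 and 8.01 at E6 and 7.43 and 8.06 at E4, and of the RBC arrays only E4 replicate 1 was Present, at 5.09 (adjusted p = 0.898). For TNNC1 and TNNT2 nRBC replicate 1 at E6 was the highest of the 4 nRBC arrays, and the other 3 lay close together for TNNT2. BCL11A, a repressor of globin genes in mammals, was by its brightest probe set Present on both RBC arrays at E6 (8.02 and 8.55). By that probe set it was Absent on both at E4 (4.51 and 4.33), with nRBC levels between 8.43 and 9.30 at both stages. The difference between stages did not pass for it (adjusted p = 0.711). Another BCL11A probe set was Present on E4 RBC replicate 1 (5.21), Absent on E4 RBC replicate 2 (4.48) and Present on both E6 RBC arrays (7.09 and 7.36). Further BCL11A probe sets were Absent on most arrays.

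**Figure D5:**
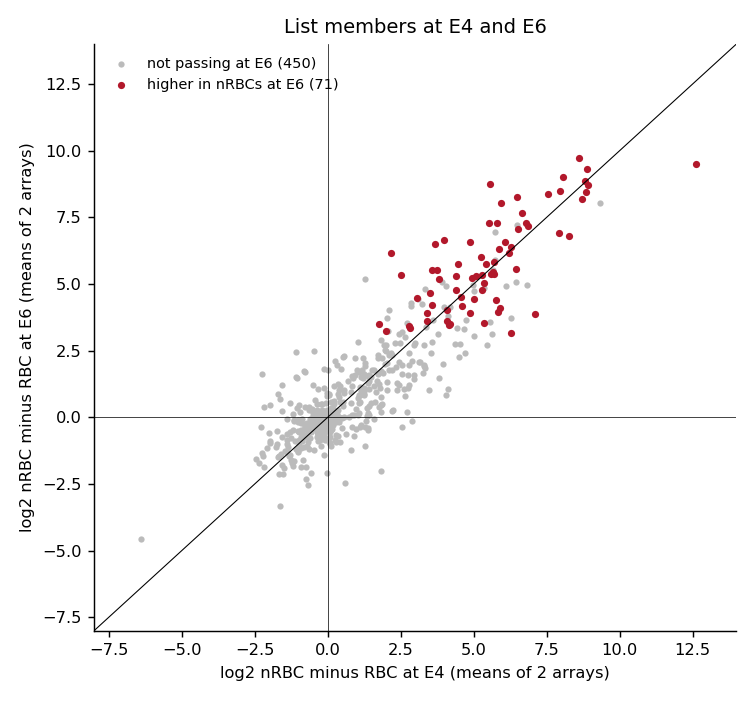
Log2 difference nRBC minus RBC at E4 (across) and at E6 (upward) for the 521 genes of the lists, each from means of 2 arrays a fraction, with the line marking equal differences. The 71 genes that passed as higher at E6 (red) all had a difference above 0 at E4.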

How the data were processed

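The authors amplified RNA in 2 cycles and hybridized it to Affymetrix chicken arrays. They deposited MAS5 signals, linear intensity values with a detection call, not scaled between arrays (for MAS5, the version was not given in the sources used here). Their deposited series matrix carries these signals as log2 values less a constant for each array. Signals of 0 (11 on the blood arrays) were set to 0.1, log2 signals of the 8 blood arrays underwent quantile normalization, and 96 Affymetrix controls were left out. Of 38439 probe sets, the platform annotation gave 1 symbol to 27168, several to 177 and none to 11094. The heart array was mapped to the same quantiles.

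Fractions were compared with R 4.3.3 and limma 3.58.1 (lmFit, then eBayes, with a mean for each of the 4 blood groups), with Benjamini-Hochberg adjustment over all probe sets and a threshold of 0.05. The contrasts were nRBC minus RBC at E6 and its difference from E4. The fit has 4 residual and 3.04 prior degrees of freedom and was tested on simulated data, where it called most of the largest changes set in and few of the smaller ones. Lists of genes are counted with 1 probe set per symbol, that of the highest mean signal, and have no test of their own. The members, the 20 lists and the rule for named genes were chosen with earlier results of these data known. The rule took the 15 largest differences in each direction (where too few passed, the lowest p), up to 4 members a list, the globins, 6 genes each way for the stages and 10 each way for replicate gaps. The 15 in each direction had to be Present on both arrays of the higher fraction, without overlap of the fractions. Other genes were chosen after their values were seen. Replicate numbers were not shown to pair the arrays: deviations of same-numbered arrays correlated at -0.046 at E6 and 0.082 at E4. No sequence or coordinate was used.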

Additional observations from a re-analysis of the deposited data

Results flagged for a closer look

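A signal in data that the comparison does not use stood apart on nRBC replicate 1 at E6. The array carries probe sets for Bacillus poly-A transcripts, controls of labeling that are not chick RNA. Their 3' probe sets gave linear MAS5 signals on nRBC replicate 1 of 4536.5 for dap, 784.9 for lys, 1093.9 for phe and 1171.9 for thr. The 5 other arrays with Present calls for them, the heart included, ran from 910.4 to 1420.1 for dap, 87.1 to 199.6 for lys, 210.5 to 375.5 for phe and 244.9 to 364 for thr. On RBC replicate 2 all 4 were Absent, as they were on both E4 arrays of replicate number 2. The part of this difference in the gaps between the nRBC replicates was not tested. Groups of 2 arrays were too small for a search for single outlying arrays, and no gene's difference between the stages passed.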

How the results depend on the processing

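The counts of calls depend strongly on the settings. Against 602 higher and 42 lower, there were 251 and 2 without quantile normalization, 272 and 21 with median scaling, 1209 and 170 with 16 added to each signal, 1283 and 130 among probe sets Present on at least 2 of the 4 arrays, 1194 and 116 with an intensity trend, 132 and 1 with the arrays' scale (many or few signals below 1) as a covariate, 169 and 1 with the GAPDH ratio as a covariate, and 42 and 0 at an adjusted p under 0.01. Limma called 0 and 0 with only the 4 E6 arrays in the fit, after quantile normalization over those 4 alone (3002 and 1753 at an unadjusted p under 0.05) and with the replicate number as a block (3156 and 2039). A setting chosen after seeing the data, probe sets Present on both arrays of at least 1 fraction, gave 1383 and 178. Leaving out 1 array at a time gave 0 to 87 higher and 0 lower. The series matrix and a minimum log2 difference of 1 gave the same counts. The count of list members called higher was 71 of 521, and 84 with the mean of a gene's probe sets. The difference between the stages passed for 0 probe sets in every alternative run. Higher calls made up 93.5% of all calls, 87.7% with 16 added. Over all probe sets the median log2 difference was -0.19, and -0.41 with median scaling.

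Signs turned for globins only among the 134 named probe sets, and none of them passed. Without quantile normalization the log2 difference was -0.205 for HBA1, -0.225 for HBE and -0.34 for HBAD, and with median scaling -0.384, -0.404 and -0.519. It was 0.0248 for HBBR with the GAPDH covariate. Leaving out 1 array at a time gave -0.0324 to 0.292 for HBA1, -0.0992 to 0.306 for HBE, -0.0985 to 0.256 for HBAD, -0.131 to 0.101 for HBBR and -0.349 to 0.0976 for HBZ. Of all values of the named probe sets under the alternatives, 1285 kept direction and side of the threshold, 706 lost the call and 88 gained it. The causes were not tested. Faint signals limit most differences: 21902 probe sets were Present on no E6 blood array.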
